A study of Sus scrofa with 63 samples.

Results

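The reciprocal crosses between Large White (LW) and Meishan (MS) pigs were compared at day 110 of gestation, in 15 of the 63 fetuses on the arrays. The members were taken from the sample titles, which put 9 fetuses in LWMS (LW sire, MS sow) and 6 in MSLW (MS sire, LW sow). Each array measured RNA of a jejunum segment, a bulk tissue, from 1 male fetus delivered by caesarean section, and no fetus was treated. Sows had been inseminated with mixed LW and MS semen, so a litter could hold purebred and crossbred fetuses, and the fetuses collected were those nearest to the mean weight of their litter. The study chose equal numbers of males per group and kept 63 according to RNA quality. The 9 and 6 fetuses are those left after that step. The purebred fetuses at day 110 (9 LW and 7 MS) and the same crosses at day 90 (9 LWMS and 8 MSLW) served for comparison. Litters were not modelled here, so litter mates counted as independent and p-values, which measure the spread between fetuses, can be too small where litters differ.

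Both crosses receive the same share of LW and MS autosomes, but from opposite parents. A male fetus has its only X chromosome and its mitochondrial DNA from the sow, so that LWMS fetuses carry an MS X and MSLW fetuses an LW X, and it has its Y chromosome from the sire. Imprinted genes are transcribed mainly from the allele of 1 parent. The uterus in which the fetus grew is also that of the sow's breed. The comparison therefore asks which transcripts follow the parental direction of the cross, and at this day the sow's X, mitochondria and uterus cannot be told apart by design.

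On the day-110 arrays, 60.4% to 72.1% of probes were well above background in LWMS (median 67.2%) and 56.5% to 80.4% in MSLW (median 67.7%). In a principal component analysis of the 15 arrays, PC1 held 25.4% and PC2 17.7% of the variance. The MSLW fetus 851 stood apart on PC2, and its median correlation with the other 14 arrays was 0.946 against 0.959 to 0.976 for the others, so that results resting on it are given with and without it. Each of 4 slides held 1 fetus of each cross, which gave 4 differences within a slide.

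Levels are given as the log2 of the background-corrected spot intensity minus the 75th percentile of its array, and differences are LWMS minus MSLW on this log2 scale. A probe was called at an adjusted p under 0.05 in the limma fit. Of 40515 probes tested, 264 were called (0.652%), with 126 higher (0.311%) and 138 lower (0.341%) in LWMS. The median absolute difference of the called probes was 0.98, and 98 of them had crosses that did not overlap, whereas 178 of all probes tested (0.439%) did not overlap. At an unadjusted p under 0.05, 4670 probes passed (11.5%), and read by 1 probe a gene, the brightest, 6.59% of 10466 genes were higher and 4.18% lower in LWMS. Within slides, 222 of the 264 had the sign of the fit on all 4 slides, 40 on 3 and 2 on 2 slides. The fetuses of these slides were also in the fit that chose the probes, so this agreement is partly built in. Leaving out single fetuses gave between 156 (without MSLW fetus 578) and 347 calls (without LWMS fetus 874), with 160 without MSLW fetus 851 and 172 without LWMS fetus 633. Median centring of the arrays moved the share of calls that were higher in LWMS from 47.7% to 81.2%, and quantile normalization moved it to 65.3%.

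The called probes were then read in the purebred fetuses, where 4153 probes (10.3%) differed between MS and LW at day 110, with 4.4% higher and 5.85% lower in MS. The purebred contrast shares no fetus with the crosses, but litter mates of the crosses can be among the purebreds. Of the 264 called probes, 117 were called in the same direction in MS minus LW, the direction of the sow's breed. Another 16 were called in the opposite direction, the direction of the sire's breed, and 131 were not called in purebreds. The classes differed in this. All 30 called mitochondrial probes and all 23 called X probes had the purebred sign, against 82 of 122 called autosomal probes, and none of the 16 opposite probes lay on the X or the mitochondrial genome.

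**Figure D1:**
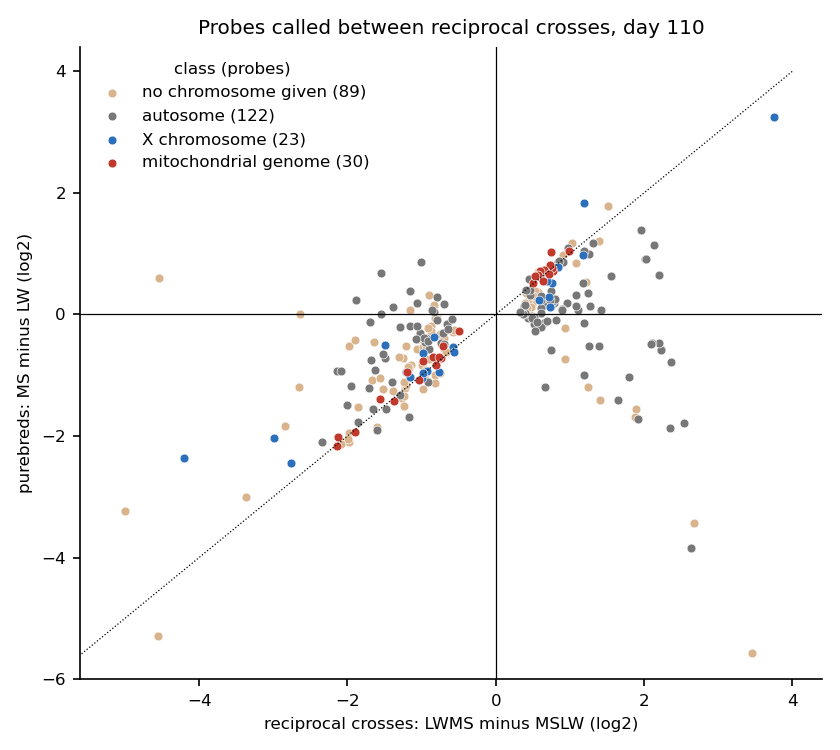
Each point is 1 of the 264 probes called between the reciprocal crosses at day 110, with LWMS minus MSLW on the horizontal axis and MS minus LW in purebred fetuses of the same day on the vertical axis, both log2 differences, and the dotted line marks equal differences. All mitochondrial and X probes have the same sign on both axes, while the 16 probes called in opposite directions have opposite signs and are autosomal or have no chromosome given.

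The mitochondrial genome encodes subunits of the respiratory chain and of the enzyme that makes ATP. Of its 127 tested probes 30 were called (23.6%), 16 higher and 14 lower in LWMS, beside 0.652% of all probes. Within CYTB and ND1 the called probes had both signs. In CYTB, a subunit of complex III, 8 of 21 probes were higher and 2 lower, and in ND1, a subunit of complex I, 1 of 20 was higher and 4 were lower. All 4 called probes of ND2 (12 tested), all 3 of COX1 (25 tested) and the only one of COX2 (5 tested) were lower in LWMS, while the 6 called probes of ND4 (11 tested) and the 1 of ND3 (3 tested) were higher. None of the 14 probes of COX3 or the 9 of ATP6 was called. Over 13 mitochondrial genes read by their brightest probe, the median difference was 0.02 and only ND4 was called.

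Neighbouring probes that share most of their bases were compared. Among the 127 probes, 6 pairs with at least 1 called probe overlapped by 25 or more bases with at most 3 mismatches. The alignment allowed no gaps, so a base missing from 1 probe can appear as mismatches. The sequences of 3 such pairs are given 5′ to 3′ as the array files hold them, with the mismatched bases in capitals, and the genes are located on the mitochondrial genome by name in RefSeq (Sscrofa11.1).
COX2 probe A_72_P746371: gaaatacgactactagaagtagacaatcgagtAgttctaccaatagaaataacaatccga
COX2 probe A_72_P751248: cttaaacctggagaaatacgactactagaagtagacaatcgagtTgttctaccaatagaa
ND1 probe A_72_P745561: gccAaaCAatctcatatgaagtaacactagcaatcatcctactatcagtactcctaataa
ND1 probe A_72_P739924: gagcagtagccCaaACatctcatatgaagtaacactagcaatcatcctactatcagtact
CYTB probe A_72_P726128: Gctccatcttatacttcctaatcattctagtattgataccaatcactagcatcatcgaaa
CYTB probe A_72_P740839: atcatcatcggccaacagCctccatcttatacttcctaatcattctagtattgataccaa

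The COX2 probes overlap by 48 bases and differ by A33T, counted from the 5′ end of the first-named probe. At A_72_P746371, LWMS fetuses lay between 3.36 and 5.71 (median 5.47) and MSLW fetuses between 5.87 and 7.31 (median 6.49), so that the crosses did not overlap. Their difference was -1.57 ± 0.35 (SE, limma adjusted p = 0.011), and that of purebreds was -1.38. At A_72_P751248 the difference between crosses was -0.09 (adjusted p = 0.886), and that of purebreds 0.22. The ND1 probes overlap by 52 bases and, aligned without gaps, differ by A4C, C7A and A8C. These mismatches, and the one of the CYTB probes below, can also be read as missing bases. A_72_P745561 gave -1.90 ± 0.30 (adjusted p = 8.85e-05) and A_72_P739924 gave -0.77 ± 0.15 (adjusted p = 0.00261). The CYTB probes overlap by 42 bases and differ by G1C. A_72_P726128 gave -0.98 ± 0.14 (adjusted p = 4.20e-06) and A_72_P740839 gave -0.36 ± 0.15 (adjusted p = 0.289). Pairs were named with the smaller p first and had to hold a called probe. The smaller difference of the second-named probe, over much of the same stretch, therefore follows largely from this order. Whether the LW and MS mitochondrial genomes differ in the stretches of these probes, and with them the binding of the probes, was not tested.

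Among the mitochondrial probes with separate crosses, ND2 A_72_P737152 lay between 3.51 and 5.01 in LWMS (median 4.60) and between 5.63 and 6.19 in MSLW (median 5.81). It differed by -1.37 ± 0.18 (SE, limma adjusted p = 8.58e-07), by -1.43 in purebreds and by -1.77 at day 90. ND1 A_72_P758032 went the other way, with 6.61 to 7.24 in LWMS (median 6.89) and 5.49 to 6.17 in MSLW (median 6.05), a difference of 0.99 ± 0.15 (adjusted p = 1.34e-05). All 9 LWMS fetuses were below the lowest MSLW fetus at the ND2 probe and above the highest at the ND1 probe. The probes lower in LWMS had a negative difference on each of the 4 slides. The ND4 probes, which were higher by 0.51 to 0.77, were not, since on 1 slide (LWMS fetus 411 and MSLW fetus 578) they gave -0.36 to -0.01. Their calls were kept in 11 to 26 of 29 other settings. At day 90, 15 of the 30 mitochondrial probes were called in the same direction, and all 30 had the same sign.

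**Figure D2:**
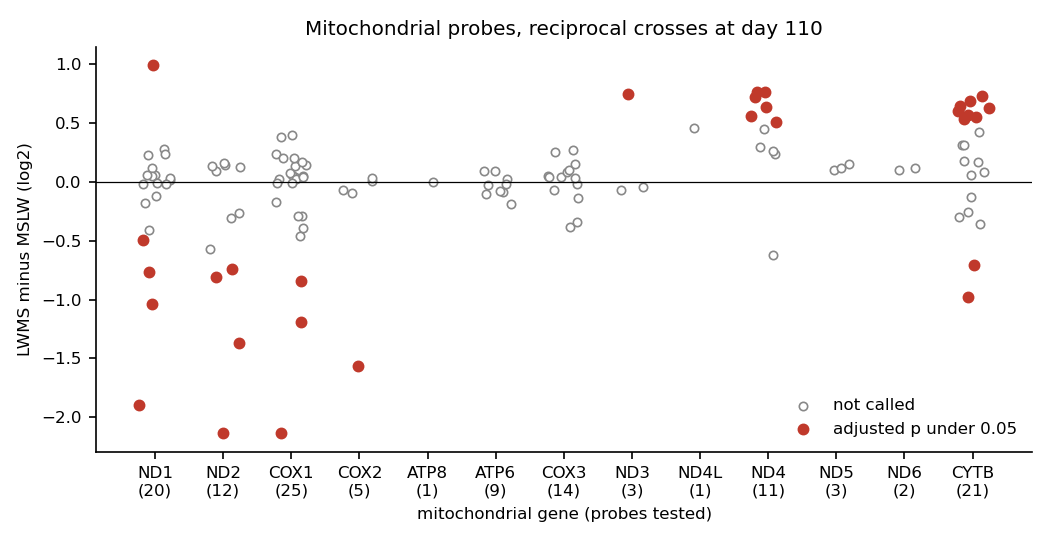
Points are the 127 tested mitochondrial probes, placed by gene with the number of probes tested under each name, and the vertical axis is LWMS minus MSLW at day 110 (log2), with filled points for the 30 probes at an adjusted p under 0.05. Called probes of ND2, COX1 and COX2 lie below 0, those of ND4 lie above it, and ND1 and CYTB hold called probes on both sides.

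On the X chromosome 23 of 812 tested probes were called (2.83%), 9 higher and 14 lower in LWMS, for 19 genes, beside 0.652% of all probes. Of the 23, 17 were also called in the same direction in purebreds, 11 were called in the same direction at day 90, and 16 did not overlap between crosses. Among all 264 called probes these counts were 117, 47 and 98, and 0.439% of all probes tested did not overlap. PRPS2 makes phosphoribosyl pyrophosphate, the starting compound of nucleotide synthesis. Its probe A_72_P317898 lay between 0.56 and 1.08 in LWMS (median 0.84) and between -0.60 and 0.15 in MSLW (median -0.48). The difference was 1.17 ± 0.14 (SE, limma adjusted p = 2.37e-07), beside 0.97 in purebreds and 1.19 at day 90, and a further PRPS2 probe gave 0.84. Its brightest probe, A_72_P408258, gave 0.23 (adjusted p = 0.539) and 0.05 in purebreds. VMA21, an assembly factor of the vacuolar proton pump, lay between 2.30 and 2.59 in LWMS and between 1.54 and 2.12 in MSLW. Its difference was 0.58 ± 0.11 (adjusted p = 0.00211), whereas purebreds differed by 0.24 (adjusted p = 0.159).

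Among X genes lower in LWMS, LOC100520992 lay between -1.93 and -1.13 in LWMS and between -0.68 and 0.24 in MSLW, with a difference of -1.21 ± 0.16 (SE, limma adjusted p = 1.72e-06). CSTF2, which takes part in cleavage of messenger RNA ends, differed by -0.76 ± 0.15 (adjusted p = 0.00252), and MUM1L1 differed by -1.15 ± 0.24 (adjusted p = 0.0046) and IQSEC2 by -0.57 ± 0.12 (adjusted p = 0.00526). In these 4 genes the purebred difference was called in the same direction. DYNLT3 (0.70), HMGN5 (0.72) and NLGN3 (1.18) were higher in LWMS, of which NLGN3 stayed called in 12 of 29 other settings.

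TMEM27 (collectrin), an X-linked partner of amino acid transporters, differed by -2.76 ± 0.59 (SE, limma adjusted p = 0.00819), with -2.44 in purebreds. LWMS fetuses lay between -3.52 and -1.82 (median -3.38), and 5 MSLW fetuses lay between -0.32 and 0.75. The MSLW fetus 851 was at -3.34, inside the range of LWMS. On its slide the difference was -0.04, against -3.90, -2.57 and -2.75 on the other slides. Quantile normalization and the slide as a fixed block ended the call.

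Some X probes, chosen here after their values were seen, stayed near background on every array of 1 cross, so that only a bound can be given. For the bound, each dim array takes the lowest signal that its scanner flagged as above background, or the dim signal itself where that was higher. FAM199X A_72_P154256 was at least 4.46-fold higher in MSLW (adjusted p = 2.66e-13), and MOSPD2 at least 3.35-fold higher in MSLW (adjusted p = 0.000162). SMS A_72_P014371 was at least 3.57-fold higher in LWMS (adjusted p = 4.14e-05). For SMS, spermine synthase, the brightest of 4 probes differed by 0.43 (adjusted p = 0.635), and a further FAM199X probe by -0.56 (adjusted p = 0.0301), so the size depended on the probe. The other MOSPD2 probes gave -0.58 (adjusted p = 0.503) and -0.24 (adjusted p = 0.89). PBDC1, for which the reference table gave no chromosome, also had separate crosses, with -4.12 to -2.97 in LWMS and -2.38 to -0.03 in MSLW. It differed by -2.08 ± 0.28 (adjusted p = 1.37e-06), beside -2.13 in purebreds and -2.01 at day 90.

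**Figure D3:**
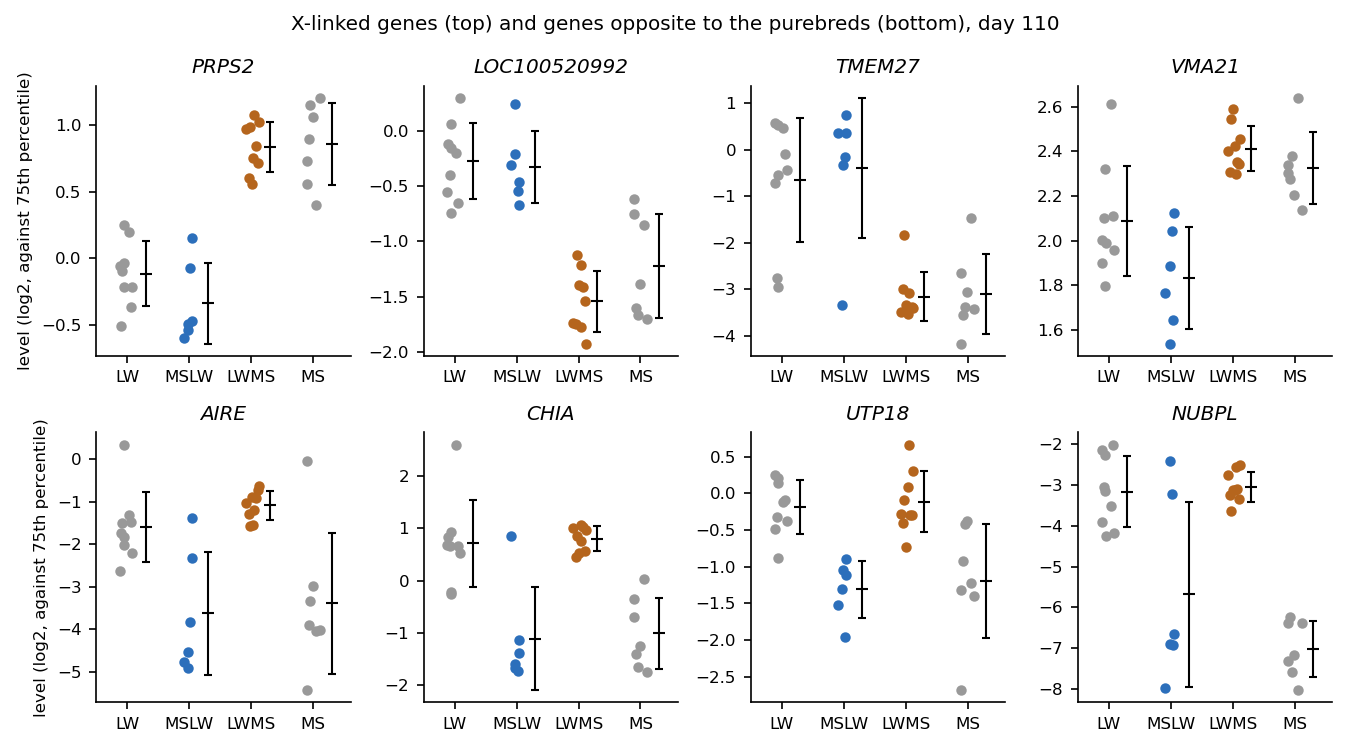
Points are fetuses at day 110 and the vertical axes are levels (log2, against the 75th percentile of the array), with the mean ± SD of each group beside its points, for X-linked genes (top) and genes called opposite to the purebreds (bottom). In the top row the mean of LWMS is nearer to that of MS than to that of LW, with 1 MSLW fetus at -3.34 for TMEM27, and in the bottom row it is nearer to that of LW, while 1 or more MSLW fetuses lie near LWMS for AIRE, CHIA and NUBPL.

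The Y genes and the listed imprinted genes gave no call. On the Y, 4 probes were tested and 0 called, with a median difference of -0.16. Of the listed Y genes, read by their brightest probe, EIF1AY (0.15, limma adjusted p = 0.802) and ZFY (0.16, adjusted p = 0.803) were tested. Of imprinted genes known for expression of the paternal allele in other species or tissues, 15 were tested and 0 were called by limma, with 1 lower at an unadjusted p under 0.05. Of those known for the maternal allele, 11 were tested, 0 called and 1 lower at an unadjusted p under 0.05. These were MAGEL2 (-0.90 ± 0.32, adjusted p = 0.201) and H19 (-1.66 ± 0.68, adjusted p = 0.294), which were named after their values were seen. IGF2, the paternally expressed growth factor, differed by -0.36 ± 0.35 (adjusted p = 0.771). Outside the lists and chosen after its values were seen, SNORD115, a small nucleolar RNA of an imprinted cluster known for expression of the paternal allele, was called lower in LWMS by its only probe. LWMS fetuses lay between -3.48 and -2.05 (median -2.81) and MSLW fetuses between -2.44 and -1.15 (median -1.76), with overlap. It differed by -0.97 ± 0.20 (adjusted p = 0.00537), by -1.01 in purebreds (adjusted p = 0.000153) and by -0.26 at day 90 (adjusted p = 0.594). The difference between crosses thus had the direction of the sow's breed, not of the sire's. Which allele was expressed was not tested. SNORD115 belongs to a family of near-identical copies, which the probe may not tell apart.

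Of 23 genes tested for mucosal defence and complement, 1 was called, the autosomal DMBT1, beside 0.592% of all genes read by 1 probe. It was higher in LWMS, and the median of the list was 0.11. DMBT1, a secreted scavenger receptor protein that binds bacteria at mucosal surfaces, was called with all 4 probes (1.96 to 2.13). At its brightest probe LWMS fetuses lay between 5.46 and 8.09 (median 5.86) and MSLW fetuses between 3.79 and 5.82 (median 4.58), and 1 MSLW fetus (688, at 5.82) reached the range of LWMS. The difference was 2.01 ± 0.41 (SE, limma adjusted p = 0.00437), whereas purebreds differed by 0.92 (adjusted p = 0.133) and the crosses at day 90 by 0.27 (adjusted p = 0.8). The call was lost in fits of the 31 arrays of day 110 or of the 15 arrays of the crosses alone.

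CD163, the haemoglobin scavenger receptor of macrophages, was called with 4 of 6 probes (1.19 to 1.56), and all 6 had a positive difference. At its brightest probe LWMS lay between -1.02 and 0.69 (median -0.56) and MSLW between -2.27 and -1.13 (median -1.69), without overlap. It differed by 1.26 ± 0.26 (SE, limma adjusted p = 0.00432), by 0.995 in purebreds (adjusted p = 0.00392) and by 0.11 at day 90 (adjusted p = 0.884). Of 13 macrophage markers tested CD163 was the only one called, beside 0.592% of all genes read by 1 probe. Of the 13, 12 had a positive difference, with a median of 0.32 beside 0.01 over all probes and 0.05 over autosomal probes. At an unadjusted p under 0.05, 3 were higher and 0 lower, beside 6.59% higher and 4.18% lower over all genes. VSIG4 differed by 0.74 (adjusted p = 0.0587) and CD14 by 0.68 (adjusted p = 0.107), while CSF1R differed by -0.56 (adjusted p = 0.573). The summed linear level of the markers ranged from 16.5 to 31.7 in LWMS and from 12.1 to 31.2 in MSLW. In bulk tissue, more cells of a type and more RNA per cell cannot be told apart.

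CBLN4, a secreted protein of synapses, differed by 2.20 ± 0.45 (SE, limma adjusted p = 0.00459), with 2 of 6 MSLW arrays well above background. The other CBLN4 probe gave 0.68 and was not called, and purebreds differed by 0.65 (adjusted p = 0.388) at the called probe. None of 9 enteric neuron and glia markers tested was called or passed an unadjusted p under 0.05, and their median difference was 0.03. BAIAP2L1, an actin-binding protein of epithelial cells, was higher by 1.19 ± 0.23 (adjusted p = 0.00211).

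TNNC2, fast skeletal troponin C, was called with 6 of 7 probes, with differences of 2.10 to 2.37, and was chosen after its values were seen. At probe O8709 LWMS lay between -1.38 and 0.30 (median -0.56) and MSLW between -4.47 and -1.78 (median -2.66), without overlap, and the difference was 2.22 ± 0.39 (SE, limma adjusted p = 0.000616). Purebreds differed by -0.57 (adjusted p = 0.386). The brightest of the 7 probes gave -0.33 (adjusted p = 0.728). Of the 8 skeletal muscle markers tested, which read TNNC2 by that brightest probe, 0 were called by limma or at an unadjusted p under 0.05, and their median was -0.07.

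Of 13 genes tested for gluconeogenesis and fructose, 1 was called, beside 0.592% of all genes read by 1 probe. This was KHK (fructokinase, the first step of fructose use). LWMS fetuses lay between 1.06 and 2.56 (median 1.54) and MSLW fetuses between -0.56 and 1.66 (median 0.53), with 1 MSLW fetus (560) inside the range of LWMS. The difference was 1.18 ± 0.26 (SE, limma adjusted p = 0.0116). It was no longer called without MSLW fetus 851 or 578, or in fits of the 31 arrays of day 110 or of the 15 arrays of the crosses, and on 1 slide (fetuses 402 and 560) it was -0.53. G6PC, which releases glucose from glucose 6-phosphate, differed by 1.37 ± 0.52 (adjusted p = 0.232), beside 3.04 in purebreds (adjusted p = 9.88e-06), and PCK1, an enzyme of gluconeogenesis, by 0.61 (adjusted p = 0.588). LDHA (0.18) and PPARGC1A (0.07) were not called. GPT, alanine transaminase, was called with probe A_72_P060116 (1.25 ± 0.27, adjusted p = 0.0103), which was chosen after its values were seen, whereas its brightest probe gave 0.90 (adjusted p = 0.139).

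Cholesterol synthesis was looked at after the values were seen, because 3 of its enzymes were among the calls. Of 18 tested genes of 26 listed, 3 were called higher in LWMS, 9 were higher at an unadjusted p under 0.05 and 16 had a positive difference, with a median of 0.38. Over all genes read by 1 probe, 0.344% were called higher and 6.59% were higher at an unadjusted p under 0.05. CYP51, lanosterol demethylase, lay between 1.80 and 2.78 in LWMS and between 0.92 and 1.73 in MSLW, with a difference of 0.89 ± 0.20 (SE, limma adjusted p = 0.0124), and the crosses did not overlap. At its other called probe they overlapped, with LWMS between 0.17 and 1.30 and MSLW between -0.60 and 0.23. MSMO1, which acts after CYP51, differed by 0.74 ± 0.19 (adjusted p = 0.0354), and SQLE, squalene epoxidase, by 0.71 ± 0.20 (adjusted p = 0.0844). In purebreds CYP51 differed by 0.08 and was not called, whereas MSMO1 (-0.59, adjusted p = 0.0236) and SQLE (-0.81, adjusted p = 0.00328) were lower in MS, opposite to the crosses. Without MSLW fetus 851, 0 of the 18 genes were called by limma, 7 were higher at an unadjusted p under 0.05 and the median was 0.35. The fits of 31 and of 15 arrays also called 0, with 8 higher at an unadjusted p under 0.05.

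AGTR1, the type 1 receptor of angiotensin II, was called with 3 of 4 probes (0.85 to 0.91) and was chosen after its values were seen. At its probe O13201 the difference was 0.85 ± 0.20 (SE, limma adjusted p = 0.0201), with LWMS between -0.28 and 0.53 and MSLW between -1.52 and -0.18. Purebreds differed by 0.88 (adjusted p = 0.000906) and the crosses at day 90 by 0.12 (adjusted p = 0.827).

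**Figure D4:**
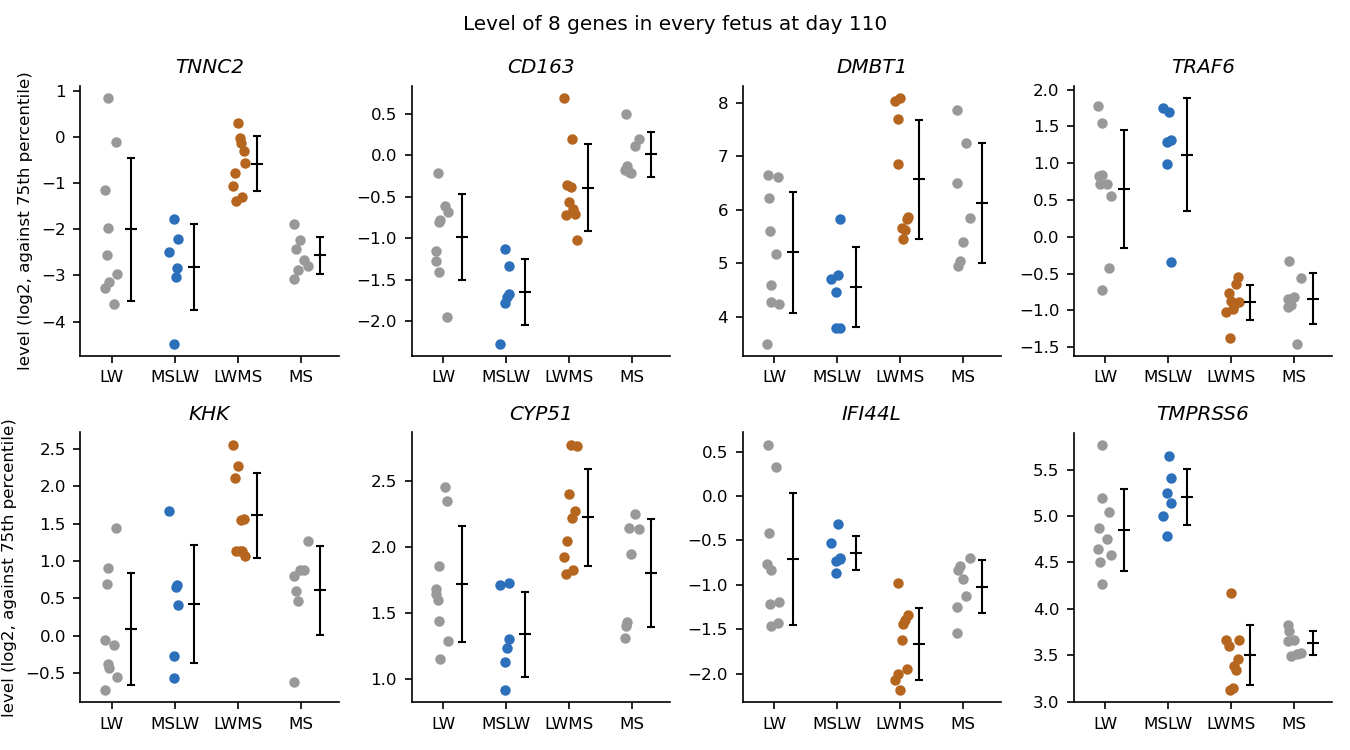
Points are fetuses at day 110 for 8 autosomal genes and the vertical axes are levels (log2, against the 75th percentile of the array), with the mean ± SD of each group beside its points. LWMS lies above MSLW without overlap for TNNC2, CD163 and CYP51 and below it without overlap for TRAF6, IFI44L and TMPRSS6, and for TMPRSS6 every LWMS and MS fetus lies at 4.17 or below and every LW and MSLW fetus above it.

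Among autosomal genes lower in LWMS, TMPRSS6, the membrane protease matriptase-2 known for control of hepcidin and iron uptake, was the most separate. LWMS fetuses lay between 3.12 and 4.17 (median 3.46) and MSLW fetuses between 4.79 and 5.64 (median 5.20). The difference was -1.70 ± 0.22 (SE, limma adjusted p = 8e-07), beside -1.21 in purebreds (adjusted p = 3.5e-05) and -1.56 at day 90 (adjusted p = 5.34e-07), and it was -2.02 to -1.33 within slides. TRAF6, an adaptor that carries toll-like receptor signals, differed by -2.01 ± 0.31 (adjusted p = 3.88e-05), by -1.49 in purebreds and by -1.15 at day 90 (adjusted p = 0.054). LWMS lay between -1.38 and -0.55, and 5 MSLW fetuses lay at 0.98 or above with the other (688) at -0.34. A dimmer TRAF6 probe gave -0.52 (adjusted p = 0.42). HEATR5A (-1.39), KIAA1549L (-1.52), NSMCE2 (-1.55) and LRFN2 (-1.29) were also lower in LWMS, with calls kept in 28, 18, 16 and 11 of 29 other settings in that order, and their purebred differences, between -0.66 and 0.12, were not called. The other probe of HEATR5A gave 0.12 (adjusted p = 0.832) and that of LRFN2 -0.33 (adjusted p = 0.785).

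Interferon-stimulated genes are antiviral effectors induced together by interferon. Of 27 tested 1 was called, lower in LWMS, beside 0.248% called lower over all genes. At an unadjusted p under 0.05, 14 were lower and 0 higher, beside 4.18% lower over all genes. The median difference of the 27 was -0.72 beside 0.01 over all probes, and 25 of 27 were negative. IFI44L, the called gene, lay between -2.19 and -0.98 in LWMS (median -1.62) and between -0.87 and -0.32 in MSLW (median -0.71). It differed by -1.02 ± 0.22 (SE, limma adjusted p = 0.00685), whereas purebreds differed by -0.31 (adjusted p = 0.386) and the crosses at day 90 by -0.17 (adjusted p = 0.748). ISG15, a ubiquitin-like modifier, lay between 0.60 and 2.63 in LWMS (median 1.22) and between 2.06 and 4.92 in MSLW (median 2.58), and these ranges overlapped. It differed by -1.71 ± 0.53 (adjusted p = 0.12), and RSAD2 (viperin) by -2.27 ± 0.63 (adjusted p = 0.0681). MX1 (-1.46) and IFI6 (-1.39) did not pass either. The highest value of ISG15, RSAD2, MX1 and IFI6 was in MSLW fetus 481, without which the median of the list was -0.48 and 11 genes were lower at an unadjusted p under 0.05. With median centring it was -0.45, with 20 of 27 negative, 7 lower at an unadjusted p under 0.05 and 0 called, and the fit of 31 arrays also called 0. GBP1 differed by -0.47 (adjusted p = 0.347). OAS2, a member of the list, differed by -1.48 (adjusted p = 0.164) at its brightest probe, and of its 6 probes, all negative, 1 was called (A_72_P589381, -1.95). GVIN1, outside the list and like that probe chosen after its values were seen, was also called lower (-0.80).

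**Figure D5:**
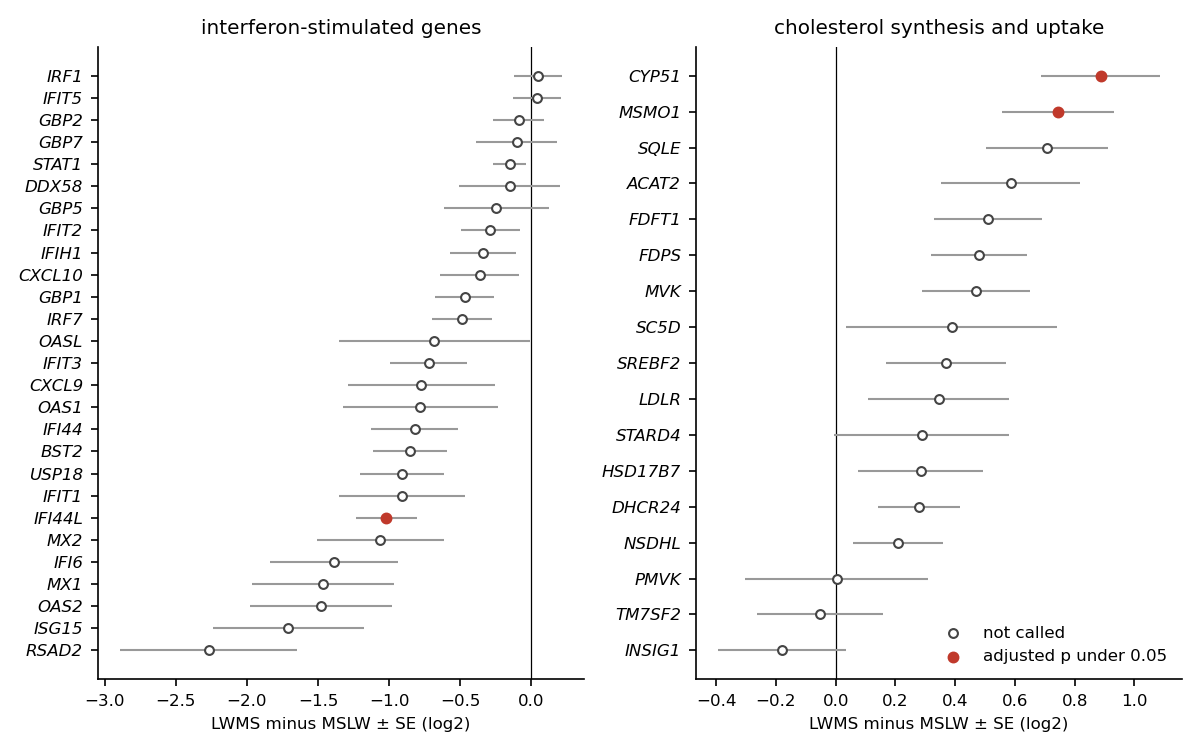
Each point is the LWMS minus MSLW difference at day 110 (log2) of 1 gene, read by its brightest tested probe, with its standard error as the bar, and filled points have an adjusted p under 0.05. On the left 25 of 27 interferon-stimulated genes lie below 0 and IFI44L is the called one, and on the right most of the cholesterol genes drawn lie above 0, with CYP51 and MSMO1 called.

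In some genes called in the direction of the sire's breed, MSLW fetuses differed widely among themselves. AIRE, the regulator of self-antigen expression in the thymus, lay between -1.56 and -0.64 in LWMS and between -4.91 and -1.39 in MSLW (median -4.18). It differed by 2.54 ± 0.57 (SE, limma adjusted p = 0.0139) against -1.79 in purebreds, but on the slide of MSLW fetus 476, at -1.39, the difference was -0.17. The call was lost without MSLW fetus 560, 578 or 851 and with the slide as a fixed block. CHIA, an acidic chitinase, differed by 1.92 ± 0.45 (adjusted p = 0.0201) against -1.73 in purebreds. Its LWMS fetuses lay between 0.46 and 1.07, MSLW fetus 560 at 0.85 and the other 5 between -1.74 and -1.13. The call was lost without MSLW fetus 481, 578 or 851 and with array weights. GPR83, a receptor, differed by 2.35 ± 0.61 (adjusted p = 0.0459) against -1.87, with 3 of 6 MSLW arrays well above background, and stayed called in 11 of 29 other settings.

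UTP18 and SIN3A had crosses without overlap. UTP18, which takes part in ribosomal RNA processing, lay between -0.73 and 0.66 in LWMS and between -1.96 and -0.89 in MSLW, with a difference of 1.19 ± 0.28 (SE, limma adjusted p = 0.0201) against -1.004 in purebreds. SIN3A, a scaffold of a repressor complex, differed by -1.01 ± 0.21 (adjusted p = 0.00512) against 0.87 in purebreds. Added after its values were seen, NUBPL A_72_P724813 differed by 2.64 ± 0.47 (adjusted p = 0.000575) against -3.85 in purebreds, where MS lay below LW. Its MSLW fetuses fell apart, with 481 at -3.23 and 851 at -2.42 beside LWMS (-3.64 to -2.51) and the other 4 between -7.97 and -6.65, near MS. Another NUBPL probe gave -0.70 (adjusted p = 0.00139), in the other direction.

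At day 90, 111 probes were called between the crosses (0.274%), and 47 of the 264 probes called at day 110 were among them with the same sign, while 220 of the 264 had the same sign. The difference between crosses itself differed between days for 2 probes (0.00494%), while 2207 (5.45%) passed an unadjusted p under 0.05. BAG6 (OTTSUST00000000560), a chaperone of newly made membrane proteins, was lower in LWMS at day 110 (-1.63, adjusted p = 0.00143) and differed by 0.82 at day 90 (adjusted p = 0.253). The other 3 BAG6 probes gave -0.01 to 0.21 at day 110 and were not called. The X gene SRPX2 (A_72_P210412) differed by -0.23 at day 110 (adjusted p = 0.754) and was lower in LWMS at day 90 (-1.94, adjusted p = 1.94e-10). The other SRPX2 probe gave 0.54 at day 110 and was not called. For DMBT1, CD163, KHK and IFI44L, which were called at day 110 alone, the difference between days was not called.

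Lists of jejunal function showed few calls. Read by 1 probe a gene, 62 of 10466 genes were called (0.592%), 36 higher (0.344%) and 26 lower (0.248%). No gene was called by limma among 15 brush border enzymes, 18 sugar, peptide and amino acid transporters, 17 lipid uptake genes, 16 genes of fatty acid oxidation, 18 of growth signalling, 13 of glucocorticoid and thyroid hormone action, 22 chemokines and cytokines or 18 of the cell cycle. At an unadjusted p under 0.05 these lists held 1, 3, 0, 2, 1, 2, 1 and 0 higher genes and 0, 0, 1, 0, 0, 0, 0 and 2 lower genes, beside 6.59% higher and 4.18% lower over all genes. The summed linear level of the brush border enzymes ranged from 139 to 437 in LWMS and from 203 to 338 in MSLW, and their median difference was 0.29. FABP1, the fatty acid binding protein of enterocytes, differed by 0.52 (adjusted p = 0.603), IGF1R by 0.20 (adjusted p = 0.836), MTOR by 0.08 (adjusted p = 0.87), NR3C1, the glucocorticoid receptor, by -0.12 (adjusted p = 0.832), and CCL2 by -0.02 (adjusted p = 0.988).

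All 13 tested epithelial markers and all 11 smooth muscle markers were above background on at least 1 array of the crosses, and 0 were called. The tested genes of every list, such as the 7 liver markers, were also above background on at least 1 array. This therefore does not define the tissue. Of 8 erythroid markers tested 0 were called and 5 were lower in LWMS at an unadjusted p under 0.05 (4.18% over all genes), with a median of -1.01 and HBB, the beta globin, at -2.02 (adjusted p = 0.0813). Quantile normalization and median centring each gave 2 lower and 1 higher at that threshold, with medians of -0.82 and -0.73. With the authors' matrix 3 of 6 were negative, 2 were lower and the median was -0.39. The summed linear level of the erythroid markers ranged from 29.0 to 95.8 in LWMS and from 31.1 to 115 in MSLW. Of 5 pancreas markers tested 0 were called and 2 were lower at that threshold. The part of blood or of other cells in the differences above was not tested.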

How the data were processed

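Jejunum RNA of 63 male fetuses was hybridised to 1-colour Agilent porcine arrays, 1 fetus per array on 8 slides. The authors deposited scanner files with linear spot intensity, made with Agilent Feature Extraction 10.10.1.1 per the submitters' processing notes, and, for 39446 probes, a log2 matrix that was used as an alternative. Its columns correlated at 0.989 or more with the scanner values, with medians of 8.61. The study's methods name a normalization before the log2 step, and its method is not given in the sources used here.

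From the scanner files, the background-corrected intensity was log2 transformed and the 75th percentile of each array subtracted. Control spots (1319 of 61625) were left out, outlier spots were left missing (2775 tested probes lack a value), and no probe spot was saturated. Tested probes (40515 of 60305) were flagged well above background in no fewer than 75% of arrays of some group. Background subtraction makes differences near the floor uncertain. The means of the 8 groups were fitted over all 63 arrays with limma 3.58.1 in R 4.3.3 (data.table, version 1.17.8), p-values were two-sided and adjusted by Benjamini-Hochberg over all tested probes, and no minimum fold was set. This spread is shared by groups of 6 to 9 arrays, and the number of arrays limits the precision. The sow, a random effect in the study's model, could not be fitted. The slide, tested as a block, had a consensus correlation of 0.0555. The steps were tested on simulated data.

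Gene symbols and chromosomes came from the files, RefSeq (Sscrofa11.1) and the study's tables, for 28097 and 27443 probes. Names from those tables favour probes that the study found to differ. The array's genome build is not given in the sources used here, so no coordinates are printed.

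Named genes are the 10 largest called differences in each direction with every array of the brighter cross well above background (1 probe a gene, the brightest), the 10 largest called X, Y or mitochondrial genes with a difference of at least 0.5, called imprinted genes, up to 4 called members of each list and the genes the study names, the 5 largest called interactions with day, and the 5 largest called opposite to a called purebred difference. The lists and members were chosen with earlier results of these data known. Other genes are marked as chosen after their values were seen, and some genes under the rule are not reported here. Alternatives were other normalizations, background correction, dim-probe filters, array sets, slide blocks, array weights, unmoderated variances, stricter thresholds, leaving out each fetus and, added after seeing the data, leaving out LW fetuses 469 and 484. Figures used matplotlib 3.10.9 in Python 3.11.15.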

Additional observations from a re-analysis of the deposited data

Results flagged for a closer look

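Of 94 groups of fetuses checked, 7 had 1 fetus far from the rest, where chance gives about 1 in 20. The number given is the gap to the nearest fetus as a share of the range of the group. In MSLW these were fetus 560, high for CHIA (0.765), fetus 851, low for TMEM27 (0.739) and HEATR5A (0.671), and fetus 688, low for TRAF6 (0.633). In LWMS they were fetus 609, high for TMEM27 (0.686) and HMGN5 (0.617), and fetus 411, low for CCL2 (0.514).

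The difference between crosses changed between days for BAG6 by -2.46 (day 110 minus day 90, limma adjusted p = 0.0039). At day 110 LWMS fetuses lay between -5.46 and -4.12 and MSLW fetuses between -4.25 and -1.86, and 7 of 9 LWMS and 5 of 6 MSLW arrays were well above background. It changed for SRPX2 (A_72_P210412) by 1.71 (adjusted p = 0.0039). At day 90 all LWMS fetuses lay at or below -1.02 and all MSLW fetuses at or above 0.16, and at day 110 both crosses overlapped, with LWMS between -1.39 and 0.88 and MSLW between -0.67 and 0.52.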

How the results depend on the processing

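No paired analysis was possible because the fetus numbers are unique to each fetus. All 264 called differences kept their direction in each of 29 other settings in which they were tested, and 45 stayed called in all of them, among these TMPRSS6, TRAF6, PBDC1, CD163, CBLN4, PRPS2, LOC100520992 and VMA21 with 1 or more probes. The kept direction is largely built in. Settings that changed only the probe filter, the variance estimate or the arrays of other groups cannot alter a difference. Those that left out a single fetus kept all the others. The count of calls was 105 at an adjusted p under 0.01, 117 in a fit of the 31 arrays of day 110, 133 in a fit of the 15 arrays of the crosses, 346 without LW fetuses 469 and 484, and 156 to 347 when single fetuses were left out. Called X probes numbered 23, with 14 in the 31-array fit and 17 to 31 without single fetuses. Probes called in the same direction in purebreds numbered 117, with 69 in the 31-array fit and 83 to 156 without single fetuses. Probes with the sign of the fit on all 4 slides, whose fetuses were also in the fit, numbered 222, with 105 in the 31-array fit and 119 in the 15-array fit. The 2 interactions with day became 4 with median centring, 9 with array weights and 2 to 6 without single fetuses (4 without MSLW fetus 851, 5 without MSLW fetus 481, 6 without LWMS fetus 874). Called list genes numbered 5, with 10 under median centring, 9 with the authors' matrix, 1 in the 31-array fit and 4 to 7 without single fetuses. The smaller fits have fewer arrays to estimate the spread, and other causes were not tested. Median centring raised the median difference of all probes to 0.28, and differences under it are relative to that.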
